A study of Mus musculus with 6 samples.

Results

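The Kruppel-like factor (Klf) genes were examined in RNA-seq libraries of mouse lymphocytes that the series text names ILC1s, a class of interferon-γ-producing innate lymphoid cells. The members were the rows for Klf2, Klf3, Klf4, Klf6, Klf7, Klf9, Klf10, Klf11, Klf12 and Klf13, found by gene symbol, which are 10 of the 15 Klf rows in a table of 24628 genes. The list was selected on RPKM levels and on the cKO and floxed values of these same libraries, with no numeric limit given. Each p-value below therefore describes the gene in these libraries, without supporting a statement about the family. It comes from a fit over all tested genes, the main one unless another is named. The member with the lowest level was Klf11, at means of 1.95 and 2.23 RPKM in the floxed and cKO groups, and 1 non-member, Klf16, lay above it at 2.52 and 2.49 RPKM. The remaining Klf rows, Klf1, Klf5, Klf8 and Klf14, stayed under 1 RPKM in every library.

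The study compared 3 libraries titled as carrying floxed Rora alleles (Rorafl/fl) with 3 titled only treatment, which were taken as the conditional knockout (cKO) group because the series text compares wild-type with cKO ILC1s. The column headings of the latter add Ncr1 to Rora. Rora encodes the nuclear receptor RORα. Cre driver, deleted exon, sort gate, age, sex and the number of animals are absent from the labels. Whether the replicates were separate animals is likewise not stated there, and the p-values thus reflect the spread among these libraries alone, which can be technical.

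KLF proteins bind GC-rich and CACCC sequences through zinc fingers at their C-terminal end, and their N-terminal parts set whether they activate or repress. The family is usually split into activators related to KLF2, KLF4, KLF6 and KLF7, repressors that bind the corepressor CtBP, such as KLF3 and KLF12, and factors that bind the corepressor Sin3, such as KLF9, KLF10, KLF11 and KLF13. In lymphocytes KLF2 keeps resting T cells quiescent and controls genes of circulation, and KLF4 restrains proliferation. Klf4, Klf6 and Klf10 also belong to the genes that cells induce rapidly after stimulation or stress.

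The upstream sequences of the 3 members with the largest group differences, Klf4, Klf2 and Klf6, are shown with that of Klf11, whose groups overlapped, so that the sites in them can be compared. RefSeq start sites on GRCm38.p6 were available for 9 of the 10 members, Klf10 being the exception. Each sequence holds the 250 bases before the start site, written 5′ to 3′ on the gene's strand: Klf2 from chr8:72318812-72319061 (plus), Klf4 from chr4:55532476-55532725 (minus), Klf6 from chr13:5861239-5861488 (plus) and Klf11 from chr12:24651121-24651370 (plus). The deposited exons of Klf2 begin 29 bases before the RefSeq start, those of Klf4 begin 9 bases after it, and those of Klf6 and Klf11 begin at it. Capitals mark every match on either strand to the 13 motifs searched, which are described after the sequences.
Klf2: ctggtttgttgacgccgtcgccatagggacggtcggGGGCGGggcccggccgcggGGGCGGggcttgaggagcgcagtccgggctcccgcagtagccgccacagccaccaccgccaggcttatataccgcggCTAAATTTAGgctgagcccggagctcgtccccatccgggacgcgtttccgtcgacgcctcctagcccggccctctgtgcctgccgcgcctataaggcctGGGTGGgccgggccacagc
Klf4: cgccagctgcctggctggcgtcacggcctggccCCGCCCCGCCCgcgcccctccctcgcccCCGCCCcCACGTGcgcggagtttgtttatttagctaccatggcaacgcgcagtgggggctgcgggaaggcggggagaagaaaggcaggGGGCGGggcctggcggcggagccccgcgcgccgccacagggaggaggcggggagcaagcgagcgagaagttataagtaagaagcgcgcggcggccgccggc
Klf6: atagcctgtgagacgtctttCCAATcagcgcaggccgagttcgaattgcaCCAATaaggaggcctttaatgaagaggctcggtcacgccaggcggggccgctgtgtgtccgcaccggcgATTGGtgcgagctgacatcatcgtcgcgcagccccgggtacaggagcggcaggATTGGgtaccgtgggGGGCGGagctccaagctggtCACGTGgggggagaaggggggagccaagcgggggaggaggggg
Klf11: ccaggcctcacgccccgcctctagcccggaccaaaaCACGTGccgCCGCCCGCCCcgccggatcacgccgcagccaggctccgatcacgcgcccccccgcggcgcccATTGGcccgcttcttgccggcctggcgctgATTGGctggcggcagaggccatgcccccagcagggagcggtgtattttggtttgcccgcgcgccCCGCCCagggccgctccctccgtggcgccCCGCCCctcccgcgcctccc

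Klf2 held a match to the MEF2 box, the site of MEF2 factors, from 118 to 109 bases before the start, and 0.508% of 32851 mouse promoter windows of this length held one. None of the other 8 member windows held it. The E-box CACGTG, the site of basic helix-loop-helix factors that include the clock proteins, was found in Klf4 (182 bases before the start), Klf6 (43 bases) and Klf11 (214 bases), and in 6.02% of all windows. It was thus present in Klf4 and Klf6, which passed the test described below, and in Klf11, which did not. The GC box GGGCGG, a site of Sp and Klf proteins, was found in 7 of 9 member windows and in 32.7% of all windows. In Klf4 and in Klf11, 2 copies on the opposite strand overlapped each other. The CACCC box CCACCC was found in Klf2, Klf3, Klf7 and Klf13, and in 28.1% of all windows, and the Klf13 copy overlapped a GC box. The CCAAT box, searched as CCAAT, was found in Klf6, Klf9, Klf11 and Klf13, and in 33.8% of all windows. The AP-1 site TGANTCA and the forkhead site GTAAACA were found only in Klf9 among the 9 windows, against 6.75% and 3.17% of all windows. The heat shock element GAANNTTC and the TATA box TATAAA were found only in Klf12, against 6.69% and 12.4%. The CRE TGACGTCA (1.55% of all windows), the CArG box bound by serum response factor (1.47%), the ROR half-site AGGTCA (14% of all windows) and the D-box TTANGTAA (2.06%) had no match in these 9 windows. The member windows were 48 to 78.4% G and C, against a median of 52.4% over all windows. The deposited exons of Klf3 begin 133 bases and those of Klf7 893 bases before the RefSeq start. The Klf7 window and part of the Klf3 window thus lie within the deposited span of these genes. The deposited exons of Klf12 begin 32 bases after its RefSeq start, and those of Klf9 and Klf13 begin at theirs.

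The libraries held 20152146 to 22440170 reads on genes, of which the 10 members took 16899 to 26212. The defining genes of type 1 innate lymphocytes were present: means in floxed and cKO libraries were 372 and 246 RPKM for Ncr1 and 103 and 99.4 RPKM for Klrb1c, which encodes NK1.1. Eomes, a factor of conventional NK cells, was present too, at 42.4 and 65.8 RPKM. Some identity genes differed between the groups, as Klf2, Klf4 and Klf6 did. Of 12 tested type 1 ILC and NK markers, 1 rose (Eomes) and 4 fell, against 0.652% and 0.668% of all tested genes. The other 7 did not pass, Klrb1c among them (limma adjusted p = 0.745). Beside Ncr1, the markers that fell were the chemokine receptor gene Cxcr6 (8.90 to 4.69 RPKM), the IL-7 receptor gene Il7r (228 to 190.5 RPKM) and the granzyme B gene Gzmb (66.3 to 49.6 RPKM). The 12 markers summed to 1341 to 1345 RPKM in floxed and 1139 to 1185 RPKM in cKO libraries. Ncr1 made the largest part of that fall, and its name stands in the cKO column headings. Whether the Ncr1 locus was altered is not stated in the labels. The part of a changed cell make-up in the Klf differences was not tested. The cKO libraries had lower Xist (28.3 to 34.2 RPKM in floxed, 9.09 to 9.86 RPKM in cKO) and higher Y-linked Ddx3y (10.02 to 11.0 and 20.52 to 21.3 RPKM). Xist marks female and Ddx3y male cells, and both were present in every library. Each library thus held RNA of male and female cells, and whether animals were pooled is not stated in the labels. The part of sex in the Klf differences was not tested. Rora averaged 7.42 and 6.07 RPKM in the floxed and cKO groups, and whole-gene values do not check a deletion of unknown extent.

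Klf4, Klf2 and Klf6 were higher in all cKO than in all floxed libraries, and none of the other 7 members passed the test on RPKM that follows. The floxed libraries held a summed Klf level of 205.2 ± 5.61 RPKM (SD, n = 3), and the cKO libraries one of 311.95 ± 5.33 RPKM (n = 3). Of that difference of 106.7 RPKM, Klf4 gave 48.5, Klf2 29.5 and Klf6 26.5 RPKM, or 104.6 RPKM together. As reads scaled to library depth (RPM), the family ran from 838.6 to 861 RPM among floxed libraries and from 1161 to 1187 RPM among cKO ones. In bulk samples a higher level per cell and more cells with that level cannot be told apart.

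**Figure D1:**
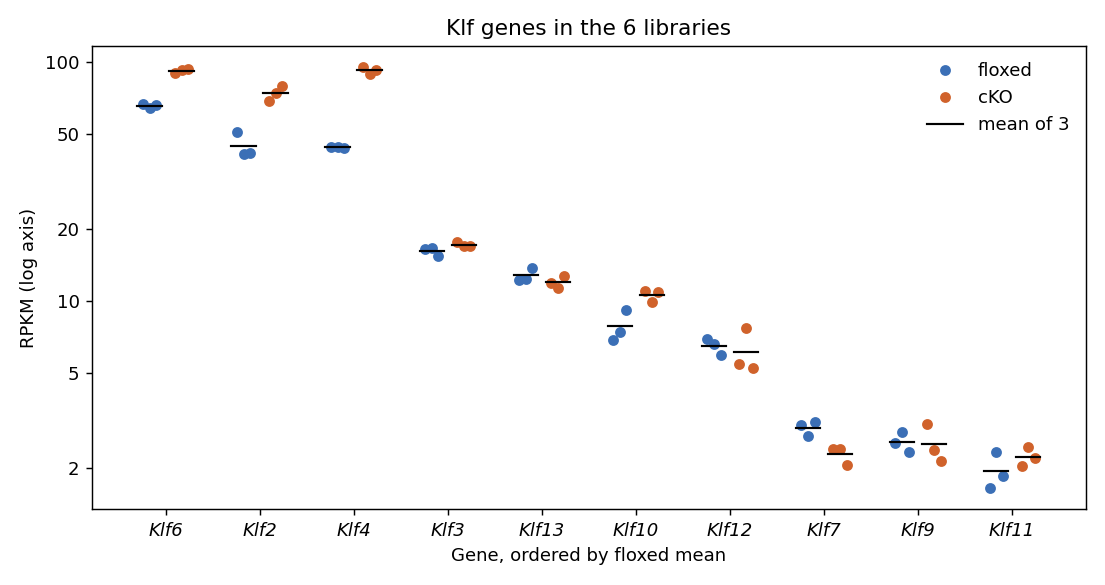
Level of each Klf gene in RPKM (log axis) in the 3 floxed (blue) and 3 cKO (orange) libraries, with the mean of each group as a bar. Klf6, Klf2 and Klf4 lie above 40 RPKM in every library and are higher in the cKO group, while the other 7 genes lie below 20 RPKM.

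A gene was tested if it reached 1 RPKM in at least 3 libraries, which held for all 10 members and for 12731 genes in all. The test was limma on log2(RPKM + 1), with 0.05 as the limit on p after Benjamini-Hochberg adjustment. Every log2 difference is the cKO value less the floxed value on that scale, and it understates changes at low levels. Of the 10 members, 3 passed as higher and 0 as lower, where 0.652% of all tested genes passed as higher and 0.668% as lower. With raw p under 0.05, 4 members lay above 0 and 1 lay below, against 5.55% and 8.6% of all tested genes, and voom on recovered reads called 4 as higher and 0 as lower, against 2.43% and 1.67% of all tested genes. Groups did not overlap in 5 members that were higher and 1 that was lower in cKO libraries, where 7.61% of all tested genes were separate as higher and 12.7% as lower. The median difference of the members was 0.11, against -0.03 over all tested genes. Because the list was drawn up with this comparison known, these counts describe it and nothing more is read from them.

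**Figure D2:**
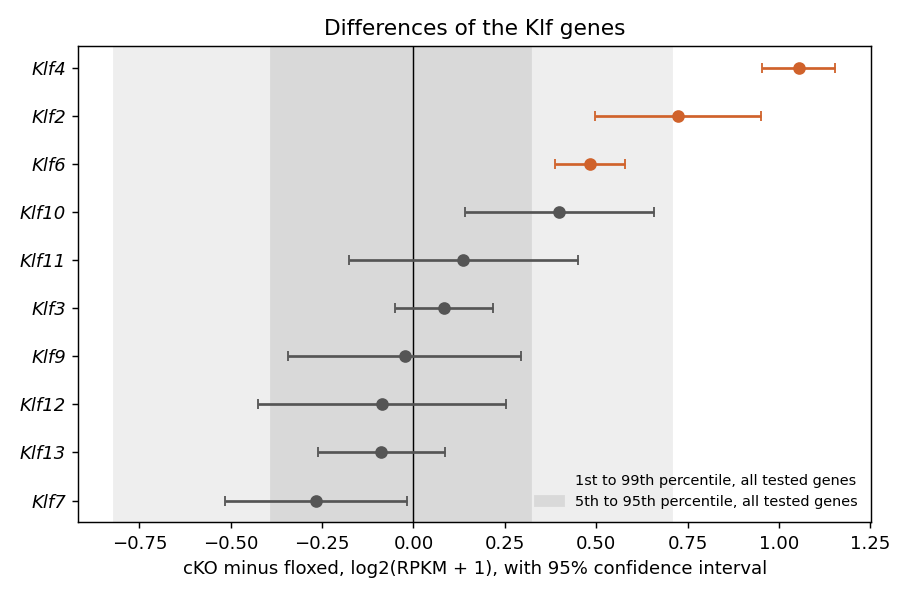
Difference of each Klf gene, cKO minus floxed in log2(RPKM + 1), with its 95% confidence interval from limma (orange, passed; grey, did not pass), over the range of all tested genes. Klf4 (1.05) and Klf2 (0.72) lie above the 99th percentile of all tested genes (0.71), and Klf6 (0.48) and Klf10 (0.40) above the 95th (0.32).

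Among the activators, Klf4 had the largest difference of the family. Klf4 encodes a factor that restrains proliferation and is known as one of the reprogramming factors, and lies on chromosome 4 at 55527143 to 55532466 (minus strand, mm10). It was at 44.1, 44.2 and 43.8 RPKM in floxed and at 95.4, 89.5 and 92.7 RPKM in cKO libraries. The floxed values were almost equal, with a coefficient of variation of 0.456%, and the lowest cKO value lay 45.3 RPKM above the highest of them. The cKO mean was 2.10 times the floxed mean, giving a log2 difference of 1.05 (SE 0.04, 95% confidence interval 0.95 to 1.15, limma adjusted p = 0.000296), the 42nd highest of 12731. Klf4 passed in all 14 refits that were run. It rested on 2716 to 6530 reads per library, and no other gene of the table shared its exon bases.

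Klf2, the quiescence factor that controls S1pr1 in T cells, was also higher in the cKO libraries. It lies on chromosome 8 at 72319033 to 72321656 (plus strand), and was at 51.0, 41.3 and 41.7 RPKM in floxed and 68.9, 74.2 and 79.6 RPKM in cKO libraries. Floxed replicate 1 stood 9.28 RPKM above the next floxed library but 17.9 RPKM below the lowest cKO library. The cKO mean was 1.66 times the floxed mean (log2 difference 0.72, SE 0.10, 95% confidence interval 0.50 to 0.95, limma adjusted p = 0.0230). The call was lost when any library but floxed replicate 1 was left out (differences 0.67 to 0.77, adjusted p = 0.0583 to 0.0966), without a filter on low genes (adjusted p = 0.0669) and with the replicate number as a block (adjusted p = 0.0963). Over all refits the adjusted p ranged from 3.13e-07, with voom, to 0.0966, and the direction was the same in each.

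Klf6, a factor induced early by growth signals and injury, was the most abundant member in floxed libraries. It lies on chromosome 13 at 5861489 to 5870393 (plus strand), and was at 66.6, 64.1 and 66.4 RPKM in floxed and 90.1, 93.1 and 93.4 RPKM in cKO libraries. The groups were 23.5 RPKM apart, against ranges of 2.51 and 3.32 RPKM within floxed and cKO libraries. The cKO mean was 1.40 times the floxed mean (log2 difference 0.48, SE 0.04, 95% confidence interval 0.39 to 0.58, limma adjusted p = 0.00446), and Klf6 passed in all 14 refits.

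Klf7, the closest relative of Klf6, was the only member with separate groups that lay lower in the cKO libraries. Its values were 3.02, 2.72 and 3.11 RPKM in floxed and 2.40, 2.39 and 2.06 RPKM in cKO libraries, a log2 difference of -0.27 (95% confidence interval -0.52 to -0.02) that did not pass (limma adjusted p = 0.322). Klf7 shares 39.3% of its exon bases with Gm26649 on the opposite strand, and the labels do not state whether counting used the strand. Whether reads of the overlapping genes were kept apart is therefore not known.

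Of the CtBP-binding repressors, neither passed. Klf3, which encodes a repressor that acts in B cells and erythroid cells, was at 16.5, 16.7 and 15.4 RPKM in floxed and 17.6, 16.97 and 17.03 RPKM in cKO libraries. Its groups did not overlap, yet the gap between them was 0.260 RPKM and the log2 difference was 0.08 (95% confidence interval -0.05 to 0.22, limma adjusted p = 0.580). Klf12 was at 6.90, 6.58 and 5.93 RPKM in floxed and 5.43, 7.68 and 5.23 RPKM in cKO libraries. The cKO libraries enclosed all floxed values, and cKO replicate 2 was the highest of the 6 (log2 difference -0.09, 95% confidence interval -0.42 to 0.25, limma adjusted p = 0.847).

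Of the Sin3-binding factors, none passed in limma on RPKM, and Klf10 passed with voom. Klf10 encodes a factor named for its early induction by TGF-β. It was at 6.90, 7.45 and 9.20 RPKM in floxed and 11.0, 9.91 and 10.9 RPKM in cKO libraries. All cKO values lay above all floxed values, with floxed replicate 3 nearest to them. The cKO mean was 1.35 times the floxed mean (log2 difference 0.40, 95% confidence interval 0.14 to 0.66, limma adjusted p = 0.180), and the limma voom fits on recovered reads gave 0.48 (adjusted p = 0.0239) and, without TMM scaling, 0.44 (adjusted p = 0.0374). Klf10 rested on 456 to 753 reads per library.

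The other Sin3-binding members had overlapping groups. Klf13, known as a factor of late Ccl5 transcription in T cells, was at 12.3, 12.4 and 13.8 RPKM in floxed and 11.9, 11.4 and 12.7 RPKM in cKO libraries (log2 difference -0.09, 95% confidence interval -0.26 to 0.09). Klf9, a glucocorticoid-induced gene, was at 2.54, 2.83 and 2.32 RPKM in floxed and 3.06, 2.37 and 2.14 RPKM in cKO libraries, and its difference of -0.02 (95% confidence interval -0.34 to 0.30) turned positive in 5 of 13 refits. Klf11, a relative of Klf10, was at 1.64, 2.34 and 1.86 RPKM in floxed and 2.03, 2.45 and 2.20 RPKM in cKO libraries (log2 difference 0.14, 95% confidence interval -0.18 to 0.45). Klf9 and Klf11 rested on 151 to 224 reads per library. The intervals run from -0.34 to 0.30 for Klf9, from -0.18 to 0.45 for Klf11 and from -0.42 to 0.25 for Klf12, so differences within these limits, in either direction, are not excluded at this precision.

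The order of the RPKM levels, which are scaled to gene length, differed at its top between the groups. In floxed libraries Klf6 (65.7 ± 1.40 RPKM, SD, n = 3) was followed by Klf2 (44.7 ± 5.47) and Klf4 (44.0 ± 0.201), whose values overlapped. In cKO libraries Klf4 (92.5 ± 2.998 RPKM) and Klf6 (92.2 ± 1.82) overlapped, and Klf2 (74.2 ± 5.34) lay below both. Klf3, Klf13, Klf10 and Klf12 then followed in this order in both groups, and Klf10 and Klf12 overlapped in floxed libraries. Klf7, Klf9 and Klf11 were lowest and overlapped their neighbours in both groups. Klf6, Klf4 and Klf2 stood among the top 5.94, 6.89 and 7.99% of tested genes by mean level over the 6 libraries, and Klf11 at 82.9%.

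Ratios within a library showed the same shift at the top without any scaling between libraries. The Klf6 level was 1.51, 1.45 and 1.52 times that of Klf4 in floxed and 0.944, 1.04 and 1.01 times in cKO libraries. The Klf4 level was 0.864, 1.07 and 1.05 times that of Klf2 in floxed and 1.39, 1.21 and 1.17 times in cKO libraries. The groups did not overlap in either ratio. Together Klf2, Klf4 and Klf6 held 74.6 to 76.5% of the summed level of the 10 members in floxed and 82.6 to 83.6% in cKO libraries.

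**Figure D3:**
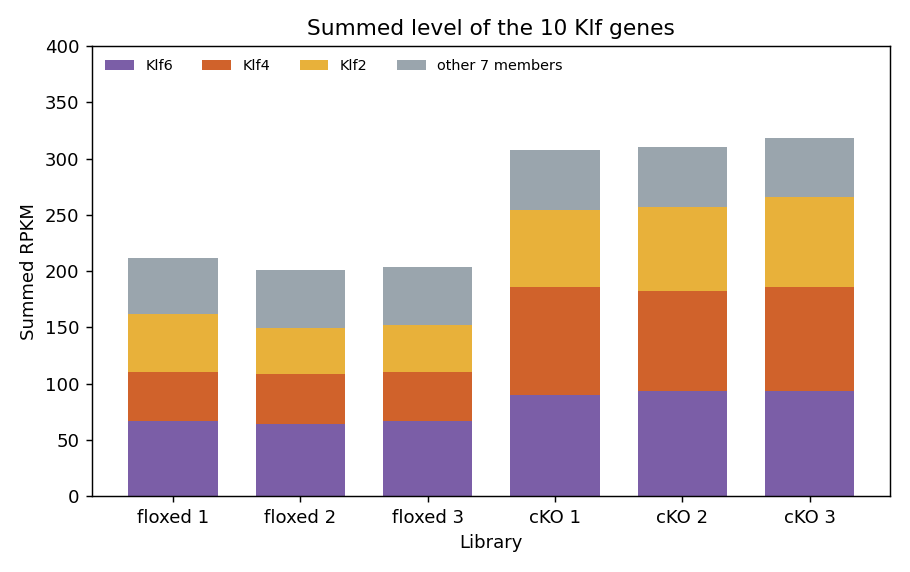
Summed RPKM of the 10 Klf genes in each library, split into Klf6, Klf4, Klf2 and the other 7 members. The sums run from 200.6 to 211.5 RPKM in floxed and from 307.9 to 318 RPKM in cKO libraries, and the grey part of the other 7 members from 49.8 to 51.6 and from 52.3 to 53.5 RPKM.

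By role, both quiescence factors, Klf2 and Klf4, passed as higher, and 2 of the 3 immediate-early members, Klf4 and Klf6, with Klf4 counted in each, where 0.652% of all tested genes passed as higher. These counts depend on the setting: Klf2 passed in 7 of 14 refits, and Klf10, the remaining immediate-early member, passed with voom only. Summed, the quiescence factors were at 85.6 to 95.1 RPKM in floxed and 163.7 to 172.3 RPKM in cKO libraries. The immediate-early members were at 115.7 to 119.4 and 192.4 to 197.1 RPKM.

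Immediate-early genes outside the family were higher in the same libraries. Of 24 tested, 15 rose, 0 fell and 9 did not pass, where 0.652% of all tested genes passed as higher and 0.668% as lower. The list was chosen with earlier results of these data known. With raw p under 0.05, 20 lay above 0 and 2 lay below (5.55% and 8.6% of all tested genes), and with voom 20 were higher and 1 lower (2.43% and 1.67%). Their median difference was 0.49, against -0.03 over all tested genes. Fos, the AP-1 subunit gene, was at 168.7, 167.1 and 168.1 RPKM in floxed and 331.6, 348.3 and 358.8 RPKM in cKO libraries. Nr4a3, Egr3 and Egr2 lay below 0 (log2 differences -0.51, -0.46 and -0.16) and did not pass in limma (adjusted p = 0.0882, 0.156 and 0.767). Nr4a3 (7.59 and 5.08 RPKM) was the gene called lower with voom (adjusted p = 0.0018). Egr3 and Egr2 did not pass with voom (adjusted p = 0.315 and 0.761). These 3 were named after their values were seen. The summed level of the list was 2411 to 2430 RPKM in floxed and 3731 to 3792 RPKM in cKO libraries. These genes also respond to tissue dissociation, and the part of sample handling in the Klf differences was not tested.

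**Figure D4:**
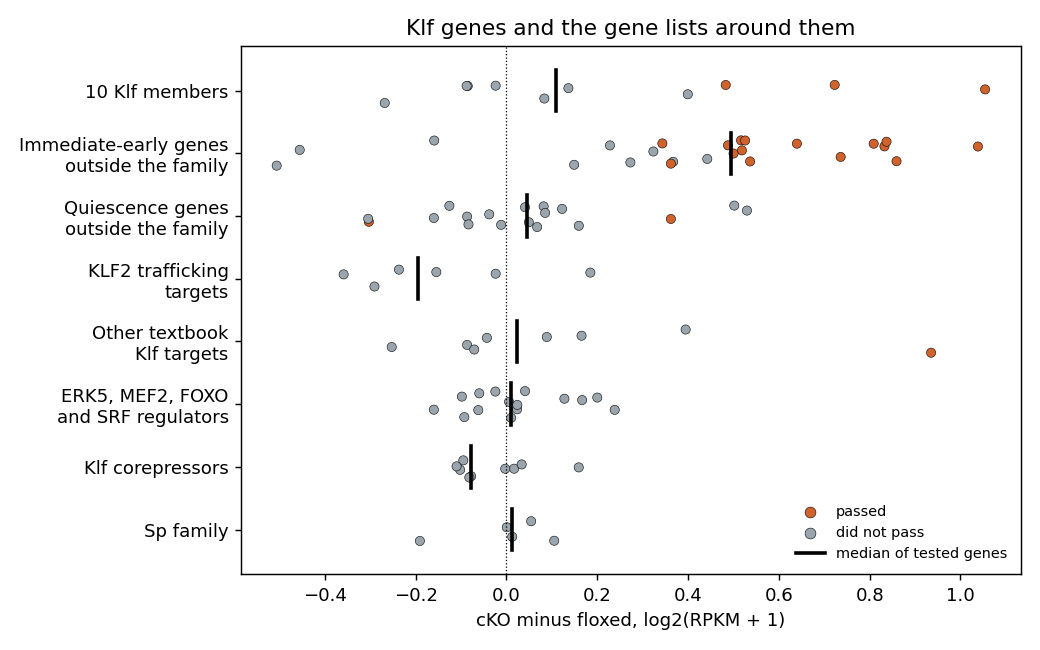
Difference of each tested gene, cKO minus floxed in log2(RPKM + 1), for the 10 Klf genes and 7 gene lists around them (orange, passed; grey, did not pass; bar, median of the tested genes). Immediate-early genes outside the family have a median of 0.49, and the medians of the other 6 lists lie between -0.20 and 0.05.

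Of 18 tested quiescence genes outside the family, 1 rose, 1 fell and 16 did not pass, with a median of 0.05. Of all tested genes, 0.652% passed as higher and 0.668% as lower. By unadjusted p under 0.05, 3 were higher and 2 lower (5.55% and 8.6% of all tested genes). With voom 3 were likewise higher and 2 lower (2.43% and 1.67%). The antiproliferative gene Btg2, which is in the immediate-early list too, rose from 58.6 ± 1.19 to 75.7 ± 3.74 RPKM (SD, n = 3 each; limma adjusted p = 0.0239). Slfn2, needed for T cell quiescence, fell from 353 ± 3.07 to 286 ± 15.5 RPKM (limma adjusted p = 0.0406).

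Genes that KLF2 is known to control in lymphocyte circulation did not pass. Of 6 tested, 0 rose and 0 fell in limma, where 0.652% of all tested genes passed as higher and 0.668% as lower. With unadjusted p under 0.05, 1 lay above 0 and 2 lay below (5.55% and 8.6% of all tested genes). Voom placed 1 as higher and 1 as lower (2.43% and 1.67%), and the median was -0.20. Itgb7, the integrin β7 gene, was at 125.6, 137.7 and 126.3 RPKM in floxed and 109.9, 106.7 and 101.3 RPKM in cKO libraries (log2 difference -0.29, limma adjusted p = 0.0680; voom adjusted p = 0.00159). S1pr1, the receptor for exit from lymphoid tissue, named here outside the rule for names, was at 21.9 ± 0.685 and 19.6 ± 1.47 RPKM (n = 3 each; log2 difference -0.15, limma adjusted p = 0.379).

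Of 8 further tested genes from a list of Klf targets and cell-cycle genes, 1 rose, 0 fell and 7 did not pass (median 0.02). Of all tested genes, 0.652% passed as higher and 0.668% as lower. By unadjusted p under 0.05, 2 were higher and 1 lower (5.55% and 8.6% of all tested genes). With voom 2 were likewise higher and 1 lower (2.43% and 1.67%). Smad7, a TGF-β feedback inhibitor gene named after its values were seen, was at 17.4 ± 0.587 and 23.2 ± 1.64 RPKM (SD, n = 3 each; limma adjusted p = 0.0533, voom adjusted p = 0.000282). Cdkn1c, a cyclin-dependent kinase inhibitor gene, rose from 1.14 ± 0.0777 to 3.10 ± 0.415 RPKM (SD, n = 3 each; limma adjusted p = 0.0230). Ccl5, the target of KLF13, was at 131 ± 9.64 and 139 ± 7.13 RPKM (limma adjusted p = 0.625), and Cdkn1b at 24.7 ± 2.09 and 23.2 ± 1.31 RPKM (limma adjusted p = 0.688).

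None of the genes for regulators and partners of the family passed in limma, where 0.652% of all tested genes passed as higher and 0.668% as lower. The shares of all tested genes were 5.55% and 8.6% with unadjusted p under 0.05, and 2.43% and 1.67% with voom. Of 15 tested genes for ERK5, MEF2, FOXO and SRF factors, which act on Klf2, Klf4 or immediate-early promoters, 0 rose and 0 fell, 0 had an unadjusted p under 0.05, and voom gave 1 as higher and 0 as lower (median 0.01). The gene called with voom was Mef2c, named after its values were seen. It was at means of 1.65 and 2.12 RPKM in floxed and cKO libraries (limma adjusted p = 0.369, voom adjusted p = 0.0348). Of 9 corepressor genes, 0 passed, 0 had an unadjusted p under 0.05, and voom called 0 (median -0.08). Of 8 genes for ubiquitin ligases of Klf proteins, 0 passed, 0 had an unadjusted p under 0.05, and voom called 0 (median 0.03). Of the related Sp genes 5 were tested and 0 passed, 1 had an unadjusted p under 0.05, on the lower side, and voom called 0. Sp1 was at 14.4 and 12.5 RPKM, Sp2 at 9.88 and 10.01 RPKM, Sp3 at 14.2 and 14.8 RPKM, Sp4 at 13.1 and 13.1 RPKM and Sp9 at 8.46 and 9.18 RPKM, as floxed and cKO means. Klf16 had a log2 difference of -0.01.

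The genes with the profile most like that of Klf4 were sought among 5113 other tested genes of at least 10 RPKM, by Euclidean distance between centred log2(RPKM + 1) values over the 6 libraries. The nearest were Fos (distance 0.13), Ddx3y (0.18) and the Ly49 pseudogene Klra13-ps (0.29). For Klf2 they were the stress-induced factor gene Ddit3 (0.23), the Ly49 receptor gene Klra4 (0.25) and the small predicted gene Gm23212 (0.26). Ddit3 was at 44.9, 44.0 and 42.8 RPKM in floxed and 67.3, 68.7 and 73.7 RPKM in cKO libraries. The group difference was 1.04 in Fos and 0.93 in Ddx3y, against 1.05 in Klf4.

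Several Klf genes are abundant in other cell types, so their markers were read in the same libraries. Of all tested genes, 0.652% passed as higher and 0.668% as lower in limma. The shares were 5.55% and 8.6% with unadjusted p under 0.05, and 2.43% and 1.67% with voom. Of 8 endothelial and stromal markers, 1 was tested, Pecam1, which leucocytes also express, and Cdh5, Kdr, Tek, Col1a1, Col1a2, Pdgfrb and Lyve1 were near 0, with means of at most 0.0658 RPKM. The list summed to 17.5 to 17.6 RPKM in floxed and 13.995 to 16.04 RPKM in cKO libraries. The 7 T cell markers summed to 67.7 to 70.9 and 60.7 to 65.4 RPKM, with Cd3e lower (5.35 and 2.93 RPKM) and 5 of 6 tested genes not passing. With unadjusted p under 0.05, 0 T cell markers were higher and 3 lower, and with voom 0 and 2. Beside Cd3e, those lower by unadjusted p were Cd8b1 (1.27 and 0.265 RPKM) and Trac (9.47 and 6.64 RPKM), named after their values were seen. With voom Cd8b1 passed (adjusted p = 0.0306) and Trac did not (adjusted p = 0.268). The 9 myeloid markers summed to 40.4 to 43.5 and 37.2 to 38.2 RPKM, with 0 of 4 tested genes passing, 1 lower by an unadjusted p under 0.05 in limma and 0 called with voom. The 5 erythroid markers in the table summed to 2.33 to 6.24 and 1.61 to 2.57 RPKM, with 0 of 2 tested genes passing, 1 lower by an unadjusted p under 0.05 in limma and 0 called with voom. The 7 B cell markers summed to 76.9 to 81.1 and 77.8 to 88.3 RPKM, mostly of Ighm (65.6 and 76.2 RPKM), while Cd22 was lower (9.93 and 6.49 RPKM) and Cd79a, Ms4a1 and Pax5 had means under 1 RPKM. No marker of these lists was at 0 in every library among those in the table, and their part in the Klf differences was not tested.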

How the data were processed

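The deposited table holds the authors' RPKM values, which divide reads by gene length and sequencing depth, with exon coordinates and gene lengths. The submitters' processing notes name the build mm10, edgeR 3.12.1, Subread 1.5.1, featureCounts and STAR 2.5.3a. What each did, the strand setting and duplicate handling are not stated in the labels. Per the labels' protocols, total RNA entered a stranded mRNA kit. Reads were recovered from RPKM and gene length: 100% of values came out as whole reads (tolerance 0.01).

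The main test was limma 3.58.1 in R 4.3.3, two-sided (lmFit, then eBayes with trend) on log2(RPKM + 1) of the 6 libraries; genes entered that reached 1 RPKM in 3 or more libraries. Alternatives were pseudocounts of 0.1 and 0.5, no filter, a filter at 5 RPKM, median scaling, limma voom with TMM scaling on recovered reads, a replicate block, each library left out and, added after seeing the data, voom without TMM scaling. The code was tested on simulated data. With 3 against 3 libraries an exact permutation test of a single gene cannot go below p = 0.1, and none was used. Members and gene lists were chosen with earlier results of these data known. All 10 members are named, and some results of the gene lists are not reported here; of other lists, at most 4 passing genes by smallest p and 2 others by level were to be named, and further names are marked. Sequences are from RefSeq (GRCm38.p6).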

Additional observations from a re-analysis of the deposited data

How the results depend on the processing

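The count of members that passed as higher was 2 to 4 over the alternatives and that as lower 0 in each. Klf4 and Klf6 passed in all of them, Klf2 in 7 of 14 and Klf10 in 2 of 14, and the other 6 members in none. Over all genes, 83 rose and 85 fell. The counts were 44 and 36 without a filter, 309 and 212 with voom, 224 and 308 with voom without TMM scaling, and 37 and 23 with the replicate block. Leaving out 1 library gave 33 to 51 higher and 27 to 39 lower genes. The share of calls that were higher was 49.4%, and 63.6% with median scaling, which moved the median of all genes by 0.04. Klf9 turned positive with median scaling (0.020), with voom (0.0011), and without floxed replicate 2 (0.03), cKO replicate 2 (0.0047) or cKO replicate 3 (0.055), and Klf12 without cKO replicate 3 (0.0025); the cause was not tested. Leaving out 1 library moved Klf9 over -0.13 to 0.055 and Klf12 over -0.24 to 0.0025. Klf7, Klf9 and Klf11 were not tested with the filter at 5 RPKM. Replicate numbers are shared between the groups, but same-numbered libraries correlated in their deviations from the group means at only -0.03, 0.01 and 0.04, so the numbers were not taken as pairs. With the block Klf2 lost its call (adjusted p = 0.0963), and not every library correlated best with its own number. The low members rest on few reads (151 to 224 for Klf9 and Klf11), which limits what can be seen.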
